A study of Homo sapiens with 5 samples.

Results

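TEAD4 ChIP-seq peaks were examined at 10 genes that control passage through G1 of the cell cycle: the D-type cyclins CCND1, CCND2 and CCND3, their kinases CDK4 and CDK6, the E-type cyclins CCNE1 and CCNE2, the inhibitors CDKN1A and CDKN1B, and the transcription factor gene MYC. The genes were taken by name, and a peak was assigned to a gene when its summit lay in the gene body or no more than 50 kb from any of its transcriptional start sites (TSSs) in GENCODE release 44 on hg38. By this rule 6 of the 10 genes had a peak, and 28 of the 21113 listed peaks were assigned. Of all 20033 protein-coding genes, 56.2% had a peak by the same rule, so the share among the G1 genes was close to the background. Of the 28 peaks, 14 lay at a single gene, CDK6.

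The chromatin came from LX-2, a human hepatic stellate cell line that had received only the solvent DMSO and no inhibitor. The line is immortalised with the SV40 large T antigen, a viral protein known to bind RB, and serves as a model of myofibroblastic stellate cells. Of 3 ChIP samples made with an anti-TEAD4 antibody, 2 (replicates 1 and 3) entered 1 common peak list, replicate 2 having been left out for its low concordance, and 2 input samples served as controls. Every value below is therefore one value per peak for both replicates together, without a spread between replicates and without a treated group, and the sequencing depth is unknown.

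Cells in G1 integrate growth signals through the D-type cyclins, which activate CDK4 and CDK6 to phosphorylate the RB protein. This releases E2F factors, which induce the E-type cyclins that activate CDK2 and commit the cell to S phase. CDKN1A (p21) and CDKN1B (p27) bind cyclin-CDK complexes and restrain CDK2, and MYC stimulates growth and cell cycle genes. Stellate cells are largely quiescent in healthy liver and proliferate once activated to myofibroblasts. TEAD4 binds DNA through its TEA domain and recruits the coactivator YAP1, and genes of proliferation are among the known outputs of YAP1 and TEAD factors.

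**Figure D1:**
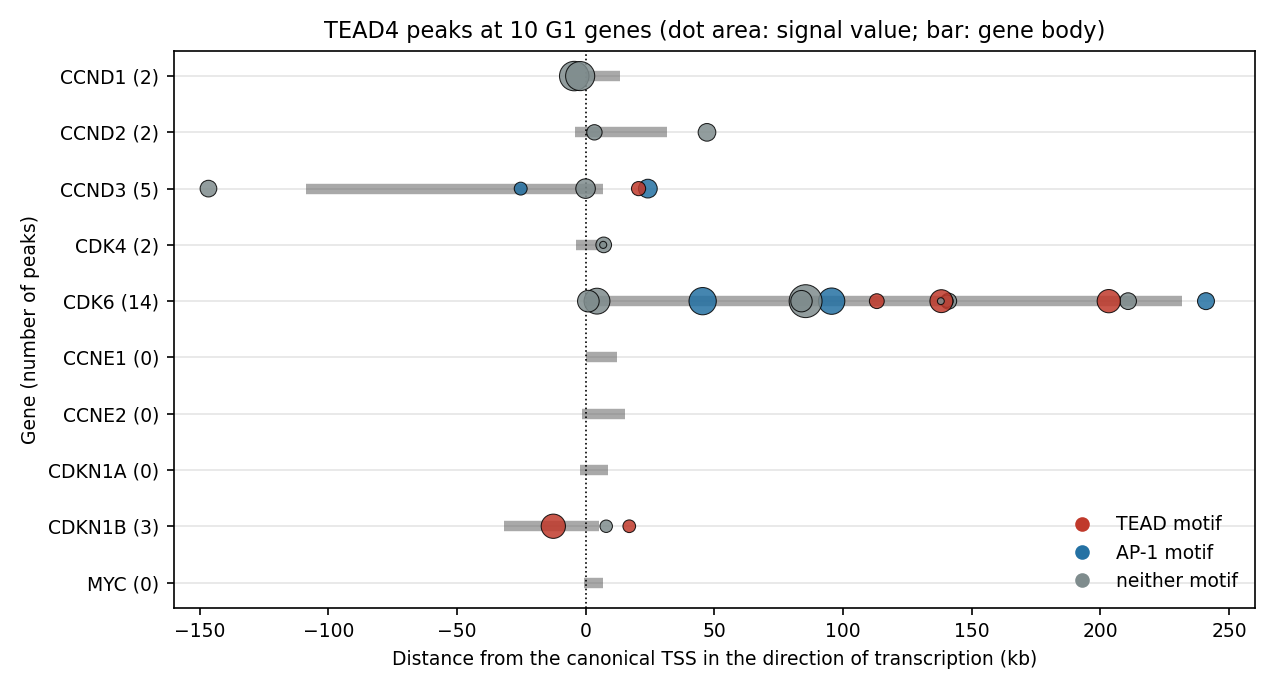
Position of the 28 TEAD4 peaks (dots) relative to the canonical TSS of each gene, in kb along the direction of transcription. The dot area is proportional to the signal value, the colour gives the motif within 100 bp of the summit, grey bars are gene bodies with all annotated transcripts, and the row label gives the number of peaks. CDK6 carried 14 of the 28 peaks, and CCNE1, CCNE2, CDKN1A and MYC carried none.

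Each peak is described by its signal value, the strength given by the authors' peak caller, whose median over the whole list was 68.1 with quartiles at 46.1 and 113.6. The 28 peaks ranged from 10.9 to 249.1 with a median of 68.9, so that 14 of them lay above the median of the list. The IDR score (irreproducible discovery rate, a measure of the concordance of peak ranks across replicates) was at its highest value of 1000 for 22 of the 28 peaks (78.6%), against 76.1% of the list. All peaks with a lower score, from 868 to 998, had signal values below the median of the list, from 35.7 to 64.2. The score was also 1000 for the 2 weakest of the 28 peaks, each of which overlaps a stronger one. A score of 1000 alone thus does not mark a strong peak here. The signal values differed both between the genes and within them.

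CCND1 (ENSG00000110092.4, chromosome 11, 69641156 to 69654474, plus strand) encodes cyclin D1, a main link between mitogen signals and the RB pathway. It had 2 peaks, both upstream of the gene and both strong. The first peak, from 69636554 to 69636805, had its summit 4479 bp before the canonical TSS and a signal value of 199.9. The second, from 69638851 to 69639113, lay 2171 bp before this TSS and reached 195.1. Both were above 90.3% of the peaks of the list or more, both had an IDR score of 1000, and no other annotated TSS of a coding or lncRNA gene was closer. Their base composition set them apart from the typical peak, with 71.1% and 69.2% G and C in the 201 bases around the summit, against a median of 44.8% over the list. Neither held the TEAD motif ACATTCC or the AP-1 motif (TGACTCA or TGAGTCA) within 100 bp of its summit on either strand. The first peak did hold 2 copies of the 6-base core of the TEAD motif, CATTCC, on the minus strand, with centres 15 and 24 bp from the summit. They are shown here in capitals as they read on the plus strand (GGAATG), in 151 bases of hg38 centred on the summit.
CCND1 upstream peak, chr11:69636602-69636752: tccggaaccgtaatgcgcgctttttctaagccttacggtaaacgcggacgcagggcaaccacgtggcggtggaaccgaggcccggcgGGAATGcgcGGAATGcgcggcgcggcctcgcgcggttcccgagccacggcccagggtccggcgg

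In the whole list, 46.8% of peaks had at least 1 core within 100 bp of the summit and 8.84% had 2 or more. Cores on 1 strand that start 9 bp from each other, as at CCND1, were found in 104 of the 21113 peaks. This spacing was taken from the CCND1 peak itself and other spacings were not counted, so the number does not set that peak apart. Among the 28 peaks of the G1 genes, 15 had a core and that at CCND1 was the only one with 2.

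CCND2 (ENSG00000118971.9, chromosome 12, 4269771 to 4305353, plus strand), which encodes cyclin D2, had 2 peaks of middling strength. One of them, from 4276909 to 4277352, lay in intron 2 of the canonical transcript and had a signal value of 54.4. Its summit was 3369 bp after the canonical TSS, 1537 bp from a TSS of another CCND2 transcript, and only 879 bp from the start of the antisense transcript CCND2-AS1, so that the nearest start was not that of CCND2. The other, from 4320661 to 4321104 with a signal value of 71.8, was 42083 bp from the nearest TSS of CCND2 and 330 bp from a TSS of TIGAR, the gene of a sugar phosphatase. It is counted for CCND2 by distance alone, and of the peaks outside gene bodies it was the one closest to the 50 kb limit from inside. Neither peak held the TEAD or the AP-1 motif, but that near TIGAR held a TEAD core 8 bp from its summit.

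CCND3 (ENSG00000112576.13, chromosome 6, 41934934 to 42050357, minus strand), the cyclin D3 gene, had 5 peaks, more than 92.8% of coding genes, in a window of 212.1 kb. This window exceeds the median of 112.4 kb over coding genes, and 87.6% of them had a lower number of peaks per length. The only promoter peak had the highest signal value of the 5, 88.0, and was narrow, from 41941801 to 41941940. Its summit lay 65 bp before the canonical TSS. No TEAD or AP-1 motif was found, but a TEAD core lay 26 bp from the summit. The 151 bases before this TSS, given on the plus strand so that the TSS follows on the left, show the core in capitals within a sequence rich in G and C.
CCND3 promoter, chr6:41941809-41941959: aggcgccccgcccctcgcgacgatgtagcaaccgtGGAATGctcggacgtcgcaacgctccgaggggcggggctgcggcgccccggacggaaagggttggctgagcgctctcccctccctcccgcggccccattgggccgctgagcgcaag

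Of the other peaks of CCND3, that at 41966860 to 41967303 lay 25274 bp upstream of the nearest start, inside the longer transcripts of the gene, and was weak (signal value 38.3, IDR score 868). It held an AP-1 motif 95 bp and a TEAD core 10 bp from its summit. The remaining 3 were closer to other genes. The peaks at 41917439 to 41917882 (signal value 80.8, with an AP-1 motif) and at 41921060 to 41921503 (46.1, with the TEAD motif) had their summits 47 and 143 bp from TSSs of MED20, which encodes a subunit of the Mediator complex, the second at an equal distance from a readthrough gene (ENSG00000288721). The peak at 42088211 to 42088654 (64.2, neither motif) was nearest to TAF8, which encodes a subunit of TFIID. Only 2 of the 5 peaks thus had a TSS of CCND3 as their nearest start.

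The kinases of the D-type cyclins differed widely. CDK4 (ENSG00000135446.17, chromosome 12, 57747727 to 57756013, minus strand) had 2 peaks, none in the gene body. They overlap each other, at 57745106 to 57745549 and at 57745309 to 57745752, with signal values of 56.5 and 11.6. The second is among the weakest of the list and had a q-value of 0.213, one of 674 peaks (3.19%) above 0.05. Both summits lay beyond the end of CDK4 and inside TSPAN31, a tetraspanin gene, within 74 bp of its annotated TSSs, and neither held the TEAD or the AP-1 motif. No peak was listed within 2.5 kb of any of the 14 TSSs of CDK4.

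CDK6 (ENSG00000105810.10, chromosome 7, 92604921 to 92836573, minus strand) had 14 peaks, against a median of 1 per coding gene. Only 75 of the 20033 coding genes (0.374%) had as many or more. The gene is long, and its window of 318.3 kb exceeds the median window of 112.4 kb, but the number of peaks per length was also high. It came to 4.40 peaks per 100 kb, against a median of 0.666 over all coding genes and 1.25 over those with a peak, and 97.6% of coding genes had a lower density. The other 5 G1 genes with peaks had between 1.83 and 2.36 per 100 kb. Of the 14 peaks, 13 lay in introns of the canonical transcript and 1 lay beyond the end of the gene, and a TSS of CDK6 was the nearest start for 12 of them when all annotated TSSs were counted. With canonical TSSs only, the rule kept 13 peaks and CDK6 was nearest for 0 of them, the canonical start of another gene being closer each time.

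**Figure D2:**
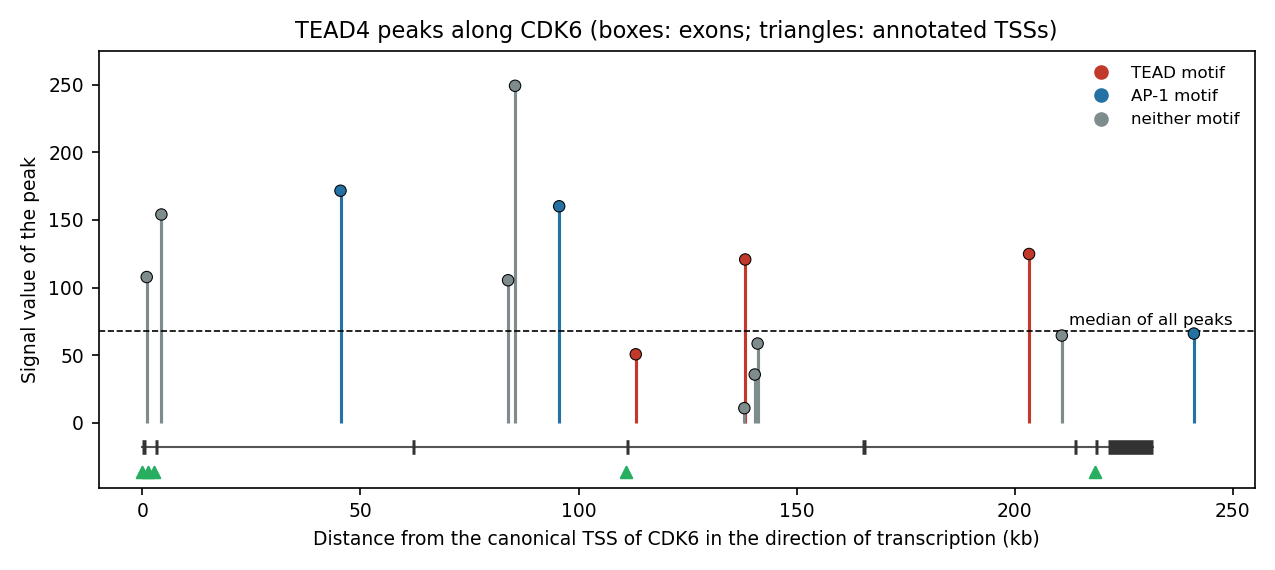
Signal value of each of the 14 TEAD4 peaks at CDK6 against its distance in kb from the canonical TSS in the direction of transcription. Boxes below are the exons of the canonical transcript (short exons are drawn wider than to scale), triangles are all annotated TSSs, the dashed line is the median signal value of the whole list, and colours give the motifs. The peaks spread over the whole gene, and the strongest, with 249.1, lay in intron 3.

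Near the 5′ end of CDK6 there were 2 peaks. That at 92835439 to 92835631 (signal value 107.8) lay in intron 1, 1016 bp after the canonical TSS and 260 bp before another start, and that at 92832087 to 92832331 (154.0) lay in intron 2, 4377 bp after the canonical TSS and 1721 bp after another start. Deeper in intron 2 the peak at 92791021 to 92791262 reached 171.6. Intron 3 held a group of 3 peaks, with the strongest peak of all G1 genes at 92750961 to 92751290 (249.1, above 94.4% of the list), its neighbour at 92752502 to 92752945 (105.4) and a peak at 92740875 to 92741113 (160.1).

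Intron 4 held 5 peaks, of which that at 92698258 to 92698460 (120.7) was the strongest, and the others had values of 58.6, 50.7, 35.7 and 10.9. The last of these overlaps the strongest, its summit lying 199 bp away, and had a q-value of 0.266. One peak of intron 4, at 92723233 to 92723676, lay 2255 bp from an internal TSS. Intron 5 held a peak of 124.8 at 92633175 to 92633422, whose nearest start was that of an unnamed lncRNA gene (ENSG00000287932), and one of 64.5 at 92625576 to 92626019. Beyond the 3′ end, 241049 bp from the canonical TSS, a peak of 66.0 at 92595302 to 92595745 lay nearer to FAM133B. In all, 8 of the 14 values exceeded the median of the list, against 6 of 14 at the other genes, and their median was 107 against 60.3.

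The TEAD motif was found at 3 of the 14 CDK6 peaks (21.4%), against 23.0% of all listed peaks. The AP-1 motif was found at 3 others (21.4%), against 25.4% of all listed peaks. No CDK6 peak held both, as did only 4.49% of the list, so neither motif was more frequent at CDK6 than in the list. The TEAD sites below are shown since they are the direct matches of the TEAD motif in a gene with many peaks. They lay 17, 48 and 89 bp from the summits of peaks with signal values of 124.8, 120.7 and 50.7. All are given on the plus strand of hg38 in 41 bases, with the motif in capitals, read as GGAATGT where it lies on the minus strand.
CDK6 intron 5, chr7:92633299-92633339: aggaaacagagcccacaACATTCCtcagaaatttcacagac
CDK6 intron 4, chr7:92698301-92698341: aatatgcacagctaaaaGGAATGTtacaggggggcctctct
CDK6 intron 4, chr7:92723346-92723386: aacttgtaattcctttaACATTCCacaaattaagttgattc

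AP-1 is a dimer of FOS and JUN proteins that often occupies the same distal regions as TEAD factors. Its motif lay 6 bp from the summit of the intron 3 peak with a signal value of 160.1, 74 bp from that of the intron 2 peak with 171.6, and 7 bp from that of the peak beyond the 3′ end with 66.0. The sites are shown in the same way, to be set beside the TEAD sites, with the AP-1 motif in capitals.
CDK6 intron 3, chr7:92741001-92741041: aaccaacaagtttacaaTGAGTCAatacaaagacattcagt
CDK6 intron 2, chr7:92791193-92791233: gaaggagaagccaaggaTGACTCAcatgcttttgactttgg
CDK6 beyond the 3′ end, chr7:92595497-92595537: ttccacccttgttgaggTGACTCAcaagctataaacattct

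The strongest peak of CDK6 held neither motif within 100 bp, nor the 6-base core. The 151 bases around its summit are shown without capitals for this reason. In contrast, the peak in intron 1 near the start sites held a core 15 bp from its summit, which is given in capitals.
CDK6 intron 3, strongest peak, chr7:92751051-92751201: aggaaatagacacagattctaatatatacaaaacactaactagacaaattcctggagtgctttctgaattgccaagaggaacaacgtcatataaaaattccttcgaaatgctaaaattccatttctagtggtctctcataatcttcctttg
CDK6 intron 1, chr7:92835482-92835632: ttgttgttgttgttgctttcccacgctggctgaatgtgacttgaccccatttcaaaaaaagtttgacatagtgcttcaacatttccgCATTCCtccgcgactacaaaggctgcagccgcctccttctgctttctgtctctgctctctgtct

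The CDK6 peaks were poorer in G and C than those at the other G1 genes, with a median of 37.3% and a range of 31.8% to 48.3% in the 201 bases around the summit, against a median of 55.0% for the other 14 peaks. Over the list the median was 44.8%.

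The inhibitors of the CIP/KIP family also split. CDKN1B (ENSG00000111276.12, chromosome 12, 12685498 to 12722369, plus strand), which encodes p27, had 3 peaks. The strongest, from 12704673 to 12704900 with a signal value of 135.7 (above 81.6% of the list), lay 12600 bp before the canonical TSS and 7548 bp after the start of another annotated transcript of the gene. A TSS of CDKN1B was its nearest start, and the TEAD motif lay 13 bp from its summit. The other 2 peaks were weak and downstream of the gene. That at 12725102 to 12725545 (35.8, neither motif, 69.2% G and C) was 593 bp from a TSS of APOLD1, and that at 12734059 to 12734502 (37.0, with the TEAD motif 27 bp from the summit) lay inside APOLD1. The site of the strongest peak, labelled upstream, lies before the canonical TSS of CDKN1B but inside the gene body with all annotated transcripts. It is shown with the weaker one and with that beside MED20 in the CCND3 window, which are the TEAD motifs of the set outside CDK6.
CDKN1B upstream, chr12:12704761-12704801: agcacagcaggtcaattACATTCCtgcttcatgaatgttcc
CDKN1B downstream, in APOLD1, chr12:12734234-12734274: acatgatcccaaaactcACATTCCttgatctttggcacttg
CCND3 downstream, beside MED20, chr6:41921242-41921282: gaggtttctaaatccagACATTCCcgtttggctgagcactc

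CDKN1A (ENSG00000124762.14, chromosome 6, 36676460 to 36687337, plus strand), which encodes the inhibitor p21, had no peak within 50 kb of any of its 8 TSSs. The nearest peak was 90702 bp upstream, at 36585536 to 36585979, with a signal value of 67.4 and SRSF3 as its nearest start. Within 100 kb there were 3 peaks, the strongest at 36577412 to 36577714 (250.9), and none of them held the TEAD or the AP-1 motif.

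No peak was listed at the E-type cyclins. For CCNE1 (ENSG00000105173.14, chromosome 19, 29811991 to 29824312, plus strand) the nearest peak lay 149278 bp upstream, at 29662491 to 29662934 near PLEKHF1, with a signal value of 62.3 and an AP-1 motif. It was also the only one within 500 kb. For CCNE2 (ENSG00000175305.18, chromosome 8, 94879770 to 94896678, minus strand) the nearest lay 116100 bp upstream, at 95012556 to 95012999 in the direction of NDUFAF6, with a signal value of 46.8 and neither motif, and 3 peaks were listed within 500 kb.

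MYC (ENSG00000136997.22, chromosome 8, 127735434 to 127742951, plus strand) had no peak within 50 kb of its 14 TSSs, but 4 between 50 and 100 kb, all downstream and all closer to PVT1, the lncRNA gene next to MYC. The nearest, at 127809638 to 127809797, was 70580 bp from a TSS of MYC and had a signal value of 58.3 with the TEAD motif. The strongest, at 127810098 to 127810458, reached 274.0 (above 95.4% of the list) and held neither motif, and the 2 others had values of 36.4 and 57.7, each with the TEAD motif. Within 500 kb of MYC there were 18 peaks. A peak absent from the list was not detected as repeatable in both replicates at an unknown depth, which does not show that TEAD4 was absent.

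**Figure D3:**
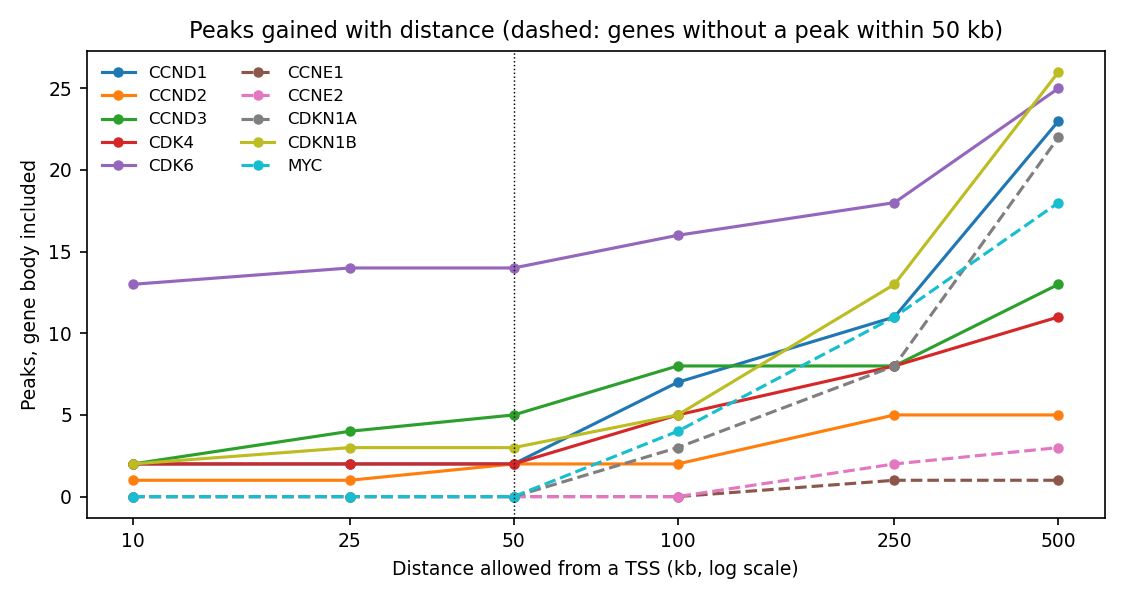
Number of TEAD4 peaks in the gene body or within a given distance of a TSS, for 10, 25, 50, 100, 250 and 500 kb (log scale), with 1 line per gene. Dashed lines are the 4 genes without a peak at 50 kb (dotted vertical line). At 500 kb CDKN1A had 22 peaks and MYC 18, whereas CCNE1 had 1 and CCNE2 had 3.

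The limit of 50 kb left out peaks that lay just beyond it. The closest were those upstream of CCND1 at 69587912 to 69588355 and 69587658 to 69588101, with summits 53022 and 53276 bp from a TSS, which overlap each other and had signal values of 20.2 and 75.7. The stronger held the TEAD and the AP-1 motif. Further upstream of CCND1, 73.1 kb away, a peak of 144.8 at 69567957 to 69568174 held the TEAD motif. CDK6 gained 2 upstream peaks between 50 and 100 kb, of 128.2 and 275.1, the second with the TEAD motif at 92916779 to 92917139 and stronger than any peak within 50 kb. Near CDK4, a peak of 564.8 at 57846912 to 57847310, above 99.6% of the list, held the TEAD motif but lay 91.1 kb away and 380 bp from a TSS of CTDSP2, the gene of a small phosphatase.

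Set against the start sites, 6 of the 28 peaks lay within 2.5 kb of a TSS of their gene, at CCND1, CCND2, CCND3 and CDK6 (3 peaks). This gave 4 of 10 genes with a peak near a TSS, against 16.6% of all coding genes. With 10 genes the exact (Clopper-Pearson) 95% interval of this share runs from 12.2% to 73.8%. The genes were chosen by name and not drawn at random, so the interval is a description and not a test against the background. The genes also differ in their number of TSSs, from 5 at CDK6 to 18 at CCND3. For 17 of the 28 peaks (60.7%) the nearest annotated start was one of the gene itself, against 4 of 26 with canonical TSSs only. The list offers no like measure. In it, 61.2% of peaks had the TSS of some protein-coding gene as the nearest start, a looser count that cannot be compared with the 60.7%.

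Of the 28 peaks, 6 held the TEAD motif no further than 100 bp from the summit (21.4%, exact 95% interval 8.30% to 41.0%), as did 23.0% of all peaks. The AP-1 motif was present at 5 (17.9%, interval 6.06% to 36.9%), and at 25.4% of all peaks. The intervals are given as a description and not as a test against the share of the list. Both motifs together were present at 0 of 28 peaks (interval up to 12.3%), and at 4.49% of all peaks. The remaining 17 peaks held neither. By gene, the TEAD motif occurred at CDK6 (3 peaks), CDKN1B (2) and CCND3 (1), and the AP-1 motif at CDK6 (3) and CCND3 (2), whereas CCND1, CCND2 and CDK4 had neither. These intervals cover counting error only and treat the peaks as independent, whereas neighbouring or overlapping peaks share sequence.

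**Figure D4:**
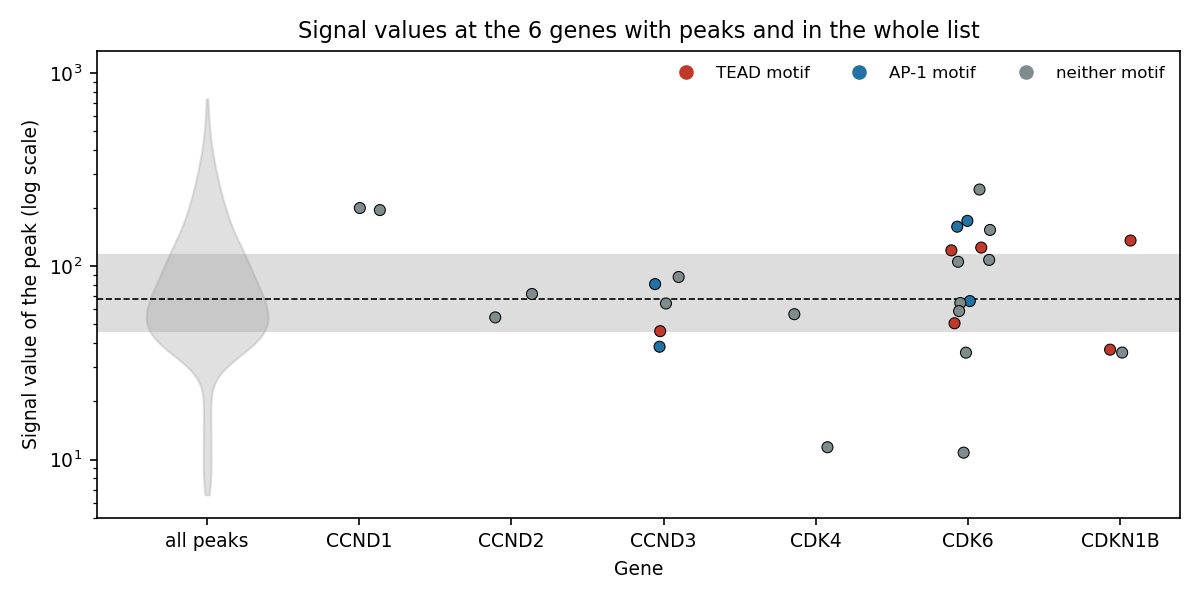
Signal value of each peak on a log scale for the 6 genes with peaks, coloured by motif, beside the distribution of the whole list (every 20th peak by rank). The grey band spans the quartiles of the list and the dashed line is its median, 68.1. Both CCND1 peaks lay above the band, at 199.9 and 195.1, and the weakest peaks of CDK4 and CDK6, at 11.6 and 10.9, far below it.

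Beyond the 10 genes, 41 other genes of the G1/S pathway were examined in the same way. A peak was assigned to 31 of them (75.6%) and a peak within 2.5 kb of a TSS to 14 (34.1%), beside the 56.2% and 16.6% of coding genes given above. By role, peaks were assigned to 5 of 6 genes of CDK2, CDK7 and their cyclins and partners, 4 of 5 INK4 and KIP inhibitors, 1 of 3 pocket protein genes, 8 of 10 E2F and DP genes and 7 of 10 genes of the MYC network. None of the 41 had as many peaks as CDK6.

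The most peaks were found at CDKN2B, which encodes the CDK4 and CDK6 inhibitor p15, and at TFDP2, a partner of E2F factors, with 5 each, of which 3 at CDKN2B were shared with other genes of the list. E2F2 and the MAX partner MGA followed with 4 each, and 8 genes had 3 each. Of these 8, CCNA2, the cyclin A2 gene, is named for its highest signal value, 422.7, at a peak nearest to EXOSC9. Promoter peaks with the TEAD motif, within 2.5 kb of a TSS, were found at 6 genes. The share of all coding genes with such a peak was not counted, so this number is a description only. At MNT, which encodes a MAX-binding repressor that opposes MYC, the peak lay 645 bp from a TSS and had a signal value of 255.3. At CDKN2B it lay 193 bp away with 169.7, and at CDKN2C, the gene of the inhibitor p18, 190 bp away with 111.5. Those at E2F3 (1209 bp, 89.6), CDC25A (343 bp, 65.8), which encodes a phosphatase that activates CDK2, and CKS1B (1836 bp, 57.7) were weaker, and the nearest start to the last was that of SHC1. Of the 6 peaks within 2.5 kb of a TSS of the G1 genes themselves, 1 held the TEAD motif, that beside the internal start of CDK6.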

How the data were processed

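LX-2 cells treated with DMSO gave 3 TEAD4 ChIP samples and 2 inputs. Per the paper's methods, reads were mapped to hg38 with Chromap and replicates 1 and 3 were compared by the ENCODE IDR pipeline. The authors deposited 1 list with 10 columns and no value per sample. Its score is the scaled IDR that the authors' pipeline gave, the signal is the deposited peak value, on a scale that is not given in the sources used here, and the −log10 q-value is also as deposited. The caller is not given in the sources used here. What each column holds was inferred from its layout and range. Summits lay inside the peak except in 4 peaks, none of them at these genes.

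From the list, peaks were assigned to genes of GENCODE release 44 with the stated rule, and sequence came from hg38, whose chromosomes contain all peaks. Motifs were searched on both strands in 201 bp around summits. The core CATTCC is part of ACATTCC, and TGACTCA and TGAGTCA are the same site read on opposite strands. Ranges and shares are descriptions, and no test was run, since the list holds no replicates. The genes, the pathway list (41 of 41 matched) and the motifs were chosen with earlier results of these data known. The counts of 1 further role of the pathway list are not reported here. Pathway genes were named by number of peaks (5 genes, ties broken by the highest signal value) or by a promoter peak with the TEAD motif. The code was tested on simulated data. Python 3.11.15, numpy 2.4.6, pandas 2.3.3, scipy 1.17.1, pysam 0.24.0 and matplotlib 3.10.9 were used. Alternatives changed the distance, the peaks, the TSSs and the motif. The depth per sample is unknown, and shares carry exact 95% intervals.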

Additional observations from a re-analysis of the deposited data

How the results depend on the processing

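For 8 results, 65 alternatives were run, and 49 stayed within 1.5 times the reported count or, for the median signal value, within its 95% interval from ranks (54.4 to 120.7). The other 16 are given here, and most follow from the construction of the alternative. At 100 kb the G1 genes had 50 peaks, 15 with the TEAD motif and 9 with the AP-1 motif. In gene bodies alone they had 17 peaks, 3 with the AP-1 motif, and 15 pathway genes had a peak, against 20 within 25 kb. Peaks above the median of the list numbered 14, of which 3 had the TEAD motif, 3 the AP-1 motif and 11 a TSS of the gene as nearest start, with a median of 130.3. With canonical TSSs only, 4 peaks had the gene as nearest start, and 0 of those at CDK6 (the CDK6 count was added after seeing the data). Within 1 kb of a TSS 2 genes had a peak. The AP-1 motif lay within 50 bp at 3 peaks, and the 6-base core of TEAD was found at 15. No paired analysis was possible because replicates 1 and 3 are merged in each listed peak, which also prevents leaving out either of them.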
